A study of Mus musculus with 8 samples.

Results

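The comparison set 4 cryolesioned mice against 4 control mice, all deficient in microglia-derived Il6, which are 8 of the 16 animals of the study. They were chosen by the labelled sample type of each array channel. The other 8 animals carried the floxed genotype, 4 of them cryolesioned and 4 controls. Total RNA came from right fronto-parietal cortex, taken on the injured side, and was measured on 8 Agilent 2-colour arrays that each held RNA of 2 different animals. A cryolesion is a focal injury made by freezing the cortical surface. The deficient controls and the deficient lesioned mice share the loss of Il6 from microglia, so the comparison shows the response to injury on that background. The Cre driver, the deleted part of Il6, the time between lesion and dissection, the age and sex of the mice, and whether controls had a sham operation are not given in the sources used here. The 4 animals of each group are biological replicates, per the labels.

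Interleukin-6 is a cytokine that binds its receptor Il6ra together with the shared subunit Il6st and activates the transcription factor Stat3, which in turn induces its own inhibitor Socs3. Relatives such as oncostatin M and leukemia inhibitory factor use Il6st too and reach the same pathway through their own receptors, among them Osmr. After a focal cortical injury, microglia and astrocytes become reactive, chemokines draw blood leukocytes into the tissue, and neurons at the site are lost.

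Each deficient animal shared its array with a floxed animal, and no array held a deficient lesioned and a deficient control animal together. The lesion effect was therefore estimated through the floxed groups, along 2 paths: through floxed controls (the 2 deficient-lesion arrays, which paired deficient lesioned with floxed control animals, and the 2 control arrays, which paired the control groups) and through floxed lesioned animals (the 2 lesion arrays, which paired the lesioned groups, and the 2 floxed-lesion arrays, which paired floxed lesioned with deficient control animals). Every change below is a log2 difference, lesioned minus control, from a limma fit over all 8 arrays with a dye term, given ± SE for 4 animals a group. A change was called at a Benjamini-Hochberg adjusted p under 0.05 over 29362 features, of which 16852 were named genes. Levels are log2 intensities of single animals, always given in the order of animals 1 to 4, and cannot be compared between genes. Comparison between animals is limited too, since levels of several injury genes differed with the array partner, as described next. In each channel 59.2% to 65.9% of probes were well above background, and 0 spots were saturated.

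Some features of the arrays touch all results and are given first. A deficient animal's level of several injury genes differed with the animal it shared an array with. Controls 1 and 2 were paired with floxed controls, whereas controls 3 and 4 were paired with floxed lesioned animals. Lcn2, an iron-binding acute-phase protein, read 6.65, 6.58, 8.79 and 9.39 in these controls. Lesioned animals 1 and 2 had lesioned partners and read 12.34 and 12.24, while lesioned animals 3 and 4 had control partners and read 10.57 and 10.41. The groups did not overlap, but within each group the pair with lesioned partners was higher. The level difference was 5.67 between animals with a partner of their own state and 1.40 between animals with a partner of the other state, against 2.39 ± 0.11 in the fit of ratios. Among the 57 called features with a change of at least 2, the median level difference was 2.63 with like partners and 2.05 with unlike partners, and it was larger with like partners for 50 of the 57. Their median change was 2.23 along the path through floxed controls and 3.17 through floxed lesioned animals. The part of the array partner in the results was not tested.

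Sex differed between animals as well. Xist, which coats the inactive X chromosome in females, was detected well above background in 1 of the 4 deficient controls, animal 2, and in 0 of the 4 deficient lesioned animals. Among the floxed animals, through which the lesion effect was estimated, it was detected in 3 of 4 controls (animals 1, 3 and 4) and in 0 of 4 lesioned animals, so detection of Xist moved with the lesion state. Ddx3y, Eif2s3y and Uty, which lie on the Y chromosome, were well above background in the other 3 deficient controls and in all 4 deficient lesioned animals. With sex as a covariate 560 features were called, which for this contrast is the same fit as leaving out control array 2, and the difference between genotypes again had 0 calls.

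Il6 itself lay at the detection limit. Its brighter probe read 5.86, 5.99, 5.96 and 5.78 in the deficient controls and 6.14, 6.20, 6.01 and 6.15 in the deficient lesioned animals. It was well above background in 0 of 4 animals of either group, against 3 of 4 floxed lesioned animals, so no fold is given. The lesioned readings were all higher (exact permutation test, two-sided, p = 0.0286, the smallest that 70 splits allow), on a signal that was not well above background. Whether the probe lies in the deleted part is not known here, so this reading checks the genotype labels only in a limited way.

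**Figure D1:**
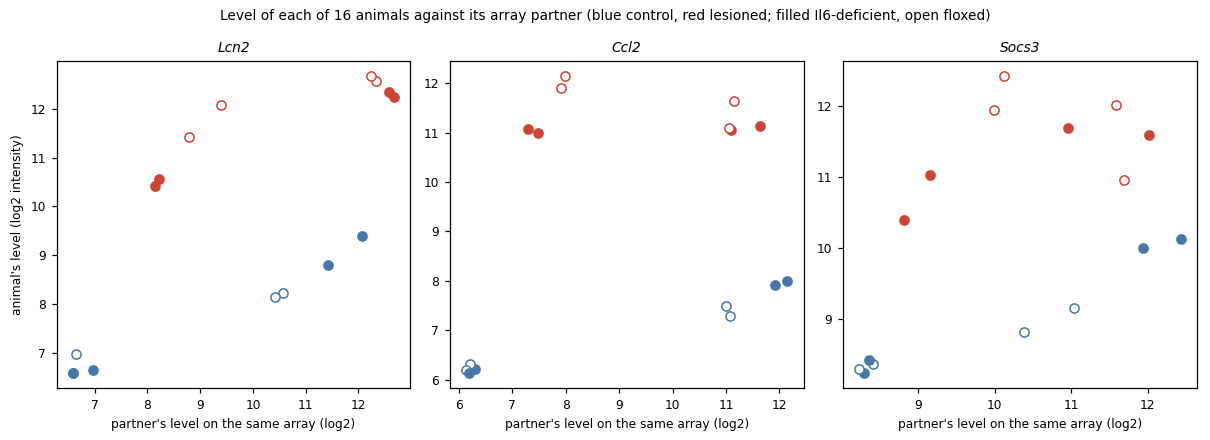
Level of each of the 16 animals (y axis, log2 intensity) against the level of the animal on the same array (x axis, log2 intensity) for Lcn2, Ccl2 and Socs3; blue points are controls, red points lesioned animals, filled points Il6-deficient and open points floxed animals. Lcn2 in deficient controls is 6.58 to 6.65 beside control partners and 8.79 to 9.39 beside lesioned partners.

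Cryolesion in Il6-deficient cortex raised genes of chemokines, reactive astrocytes and phagocytes, and some neuronal genes were among those lowered. The fit called 803 of 29362 features (2.73%), 490 higher (1.67%) and 313 lower (1.07%), and 658 of them were named genes. These shares are the background for the counts called in the gene lists below. Rises were larger than falls: 289 features rose and 67 fell at least 2-fold, and the calls ran from -1.86 to 4.85. The median over all features was -0.0085. Levels of the 4 lesioned and 4 control animals did not overlap for 724 of the 803, against 17.7% of all features. The calls came from the same intensities, so this separation is no independent support for them. Over all features the balance was the other way from that of the calls: 2335 features (7.95%) lay higher in every lesioned animal and 2876 (9.8%) lower.

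The number of calls depended on which arrays entered. Leaving out control array 1 gave 115 and leaving out control array 2 gave 560. It was 173 and 251 without floxed-lesion arrays 1 and 2, and 253 and 37 without lesion arrays 1 and 2. Without deficient-lesion arrays 1 and 2 it was 1187 and 127. Of the 1187, 621 were among the 803 calls of the fit over all 8 arrays. Over these 8 fits, 34 features passed throughout, 30 higher and 4 lower. Of the 111 called genes named by rule, 33, 91, 47, 66, 67, 20, 104 and 38 kept their call in those fits, in the same order, and none changed sign. How many of the 8 fits kept a gene's call is given with the genes below. The split into higher and lower calls also moved with the scaling: 61.0% of calls were higher in the fit reported, 50.6% after median centring in place of loess, 81.5% with the scanner software's processed signals and 50% in a fit of the separate channels. Each gene was read by its brightest probe. With the mean over all its probes, 12 of the 111 named calls ended and 13 moved by over 1.5 times. Gbp2 and S100a8 lost their call at the same changes of 2.44 and 1.89, as only their adjusted p moved, to 0.0518 and 0.0502. Glul, Irf7, Per3 and Trank1 lost their call too, and Cp, Il1r2, Kalrn, Lss, Syne1 and Tap1 both lost it and moved. Camkk2, Ecel1, Mcm6, Plin2, Stat3, Tbr1 and Tlr13 kept it at a smaller change, Stat3 at 1.14.

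**Figure D2:**
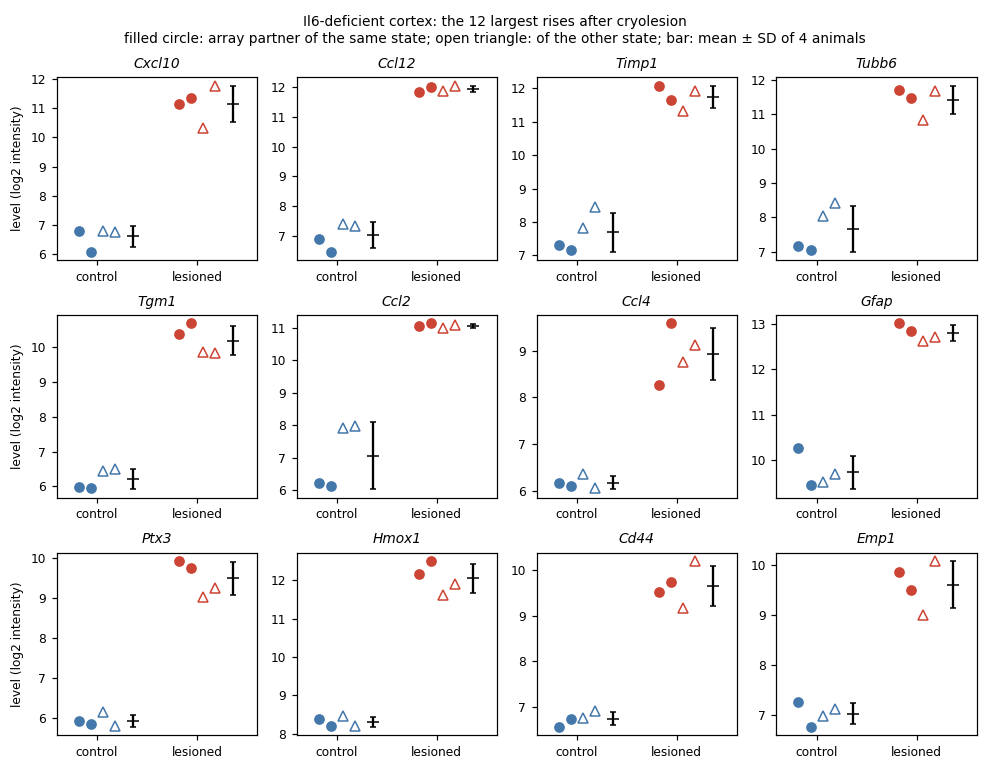
Log2 intensity (y axis) in each deficient control and deficient lesioned animal (x axis, animals 1 to 4 from left to right) for the 12 called genes with the largest rises; circles have an array partner of their own state, triangles one of the other state, and the bar is the mean ± SD of 4 animals. Every lesioned animal lies above every control in all 12 genes, and Ccl2 in controls is 6.13 to 6.21 or 7.92 to 7.99 by array partner.

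Chemokines made up 4 of the 12 largest rises. Cxcl10, a ligand that attracts activated T cells and is induced by interferons, read 6.80, 6.10, 6.80 and 6.78 in controls and 11.14, 11.34, 10.31 and 11.77 in lesioned animals. No lesioned animal came near the controls, although lesioned animal 3 was more than a log2 unit below lesioned animal 4. The change of 4.85 ± 0.77 (adjusted p = 0.0311) had the widest error of the large rises, was 3.26 along the path through floxed controls and 6.43 through floxed lesioned animals, and was called in 3 of the 8 fits that leave out an array. Ccl12, a mouse chemokine that draws monocytes through Ccr2, read 6.89, 6.48, 7.40 and 7.35 in controls and 11.83, 12, 11.86 and 12.04 after the lesion. Its lesioned animals lay close together, and its change of 4.58 ± 0.16 (adjusted p = 0.000269) was called in all 8 such fits.

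Ccl2, another monocyte attractant, stood at 6.21, 6.13, 7.92 and 7.99 in controls and 11.05, 11.14, 11 and 11.08 in lesioned animals. The lesioned animals were almost alike, while the controls fell into pairs by array partner. Ccl2 rose by 3.76 ± 0.12 (adjusted p = 0.000269; 8 of 8 fits). Ccl7, of the same family, rose by 3.05 ± 0.11 (adjusted p = 0.000269; 8 of 8 fits) and Ccl4, a macrophage chemoattractant, by 3.65 ± 0.37 (adjusted p = 0.00915; 7 of 8 fits). In all, 8 of 17 tested CC chemokine and receptor genes rose and 0 fell, with a median of 0.69. Ccl3, Ccl6 and Ccl9 also passed, with changes from 1.99 to 2.48. Ccr2, the receptor of Ccl2, Ccl7 and Ccl12, changed by 0.69 ± 0.19 and was not called.

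Of 12 tested CXC and CX3C genes 3 rose and 1 fell. Cxcl1, a neutrophil attractant, was well above background in 0 of 4 controls and in 4 of 4 lesioned animals, and its fitted change was 1.99 ± 0.24 (adjusted p = 0.0142; 6 of 8 fits). From the levels it was at least 4.57-fold higher after the lesion. Such a bound takes the lesioned mean over a control mean in which each dim reading is raised to the lowest signal that counts as well above background. It rests on levels, and for Cxcl1 it is a larger fold than the fitted ratio gives. The transmembrane chemokine Cxcl16 rose by 0.97 ± 0.17 (2 of 8 fits). Cxcl12, a constitutive chemokine of vessels and neurons, fell from 11.17, 11.54, 11.48 and 11.37 to 9.74, 10.41, 10.41 and 10.23. All lesioned animals were below all controls, and the fall was -1.05 ± 0.13 (adjusted p = 0.0159; 4 of 8 fits).

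In the IL-6 family 1 of 14 tested genes passed. Osmr, the signalling receptor of oncostatin M, read 7.36, 7.51, 7.51 and 7.53 in controls and 10.19, 10.30, 9.70 and 10.02 after the lesion. The groups were far apart, and the rise of 2.77 ± 0.21 (adjusted p = 0.00395) was called in 8 of 8 fits. Its ligand Osm changed by 0.76 ± 0.20, the receptor Il6ra by 0.34 ± 0.26 and the shared subunit Il6st by 0.48 ± 0.17, none of them called. Il6ra read 9.24, 9.40, 9.49 and 9.52 in controls and 9.78, 10.15, 9.22 and 9.85 in lesioned animals, of which animal 3 lay below all controls. The list's median was 0.26.

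Of 22 genes of the JAK and STAT3 pathway and its known targets 11 rose, 0 fell and 11 were not called, with a median of 1.24. Stat3 read 10.27, 10.37, 10.51 and 10.58 in controls and 12.08, 12.17, 11.64 and 11.94 in lesioned animals. The groups were separate by about a log2 unit, and Stat3 rose by 1.77 ± 0.20 (adjusted p = 0.0113; 4 of 8 fits). Socs3, which blocks Il6st signalling, read 8.23, 8.41, 9.99 and 10.12 in controls and 11.69, 11.59, 10.39 and 11.03 in lesioned animals. Controls 3 and 4, beside lesioned partners, came just below the lowest lesioned animal, so the separation was small. Its rise was 2.00 ± 0.25 (adjusted p = 0.0159; 4 of 8 fits).

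The largest rises of the list were in target genes. Cebpd, a transcription factor of the acute-phase response, rose by 3.29 ± 0.24 (8 of 8 fits) and Bcl3, a nuclear partner of NF-kappaB, by 3.13 ± 0.36 (5 of 8). The protease inhibitor Serpina3n rose by 2.88 ± 0.29 (6 of 8). Tgm1, a transglutaminase that crosslinks proteins, read 5.98, 5.94, 6.45 and 6.50 in controls, of which 2 of 4 were well above background, and 10.36, 10.68, 9.86 and 9.84 after the lesion. Its rise of 3.80 ± 0.17 (adjusted p = 0.000622; 8 of 8 fits) was among the 5 largest, and lesioned animals with lesioned partners were the higher pair. The kinases Jak1 (-0.14 ± 0.16), Jak2 (0.08 ± 0.09) and Tyk2 (-0.03 ± 0.09) were not called.

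The list with the most calls for its size was that of reactive astrocytes, with 18 of 27 genes higher and 0 lower and a median of 2.23. Gfap, the intermediate filament of astrocytes, read 10.26, 9.45, 9.51 and 9.69 in controls and 13.02, 12.85, 12.62 and 12.72 in lesioned animals. The lowest lesioned animal was over 2 log2 units above the highest control, and the rise was 3.65 ± 0.26 (adjusted p = 0.00344; 8 of 8 fits). Timp1, an inhibitor of matrix metalloproteinases, went from 7.33, 7.17, 7.83 and 8.44 to 12.08, 11.65, 11.31 and 11.92. Its controls 3 and 4, which had lesioned partners, were the higher pair, and the rise was 4.36 ± 0.26 (adjusted p = 0.00206; 8 of 8 fits). Ptx3, a secreted pattern-recognition protein, was well above background in 0 of 4 controls and 4 of 4 lesioned animals and was at least 10.97-fold higher by its levels, with a fitted change of 3.55 ± 0.21 (adjusted p = 0.00206; 8 of 8 fits). Over the alternatives tried, the change of Ptx3 ran from 3.30 to 7.21.

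Other members of the list were the hyaluronan receptor Cd44 and the membrane protein Emp1. Cd44 read 6.56, 6.74, 6.75 and 6.90 in controls and 9.52, 9.75, 9.17 and 10.21 after the lesion. Its groups were clearly apart, with a rise of 3.41 ± 0.30 (adjusted p = 0.00653; 7 of 8 fits). Emp1 rose by 3.38 ± 0.55 (adjusted p = 0.0325; 4 of 8 fits), with a change of 2.30 through floxed controls and 4.46 through floxed lesioned animals. The filaments Vim and Nes rose by 2.59 and 2.29. Members that did not pass included Steap4 (0.05 ± 0.15), Ptgs2 (1.26 ± 0.49) and Sphk1 (2.22 ± 0.79).

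Homeostatic astrocyte genes leaned the other way, with a median of -0.21, 1 of 22 higher and 3 lower. Glul, which makes glutamine from glutamate, read 15.05, 15.03, 15.26 and 15.07 in controls and 14.33, 14.65, 14.35 and 14.01 in lesioned animals. All lesioned animals were lower, by -0.93 ± 0.14 (adjusted p = 0.0259; 2 of 8 fits). The proteoglycan Bcan fell by 1.05 on the log2 scale (± 0.17; 1 of 8 fits). The glycolytic enzyme Aldoc was called at -0.65 ± 0.10, but its levels overlapped: 16.46, 16.19, 16.48 and 16.67 against 16.71, 16.24, 15.83 and 16.04, and among animals with like partners they were 0.15 higher after the lesion. Sox9, a glial transcription factor, rose by 0.84 ± 0.14 (1 of 8 fits).

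**Figure D3:**
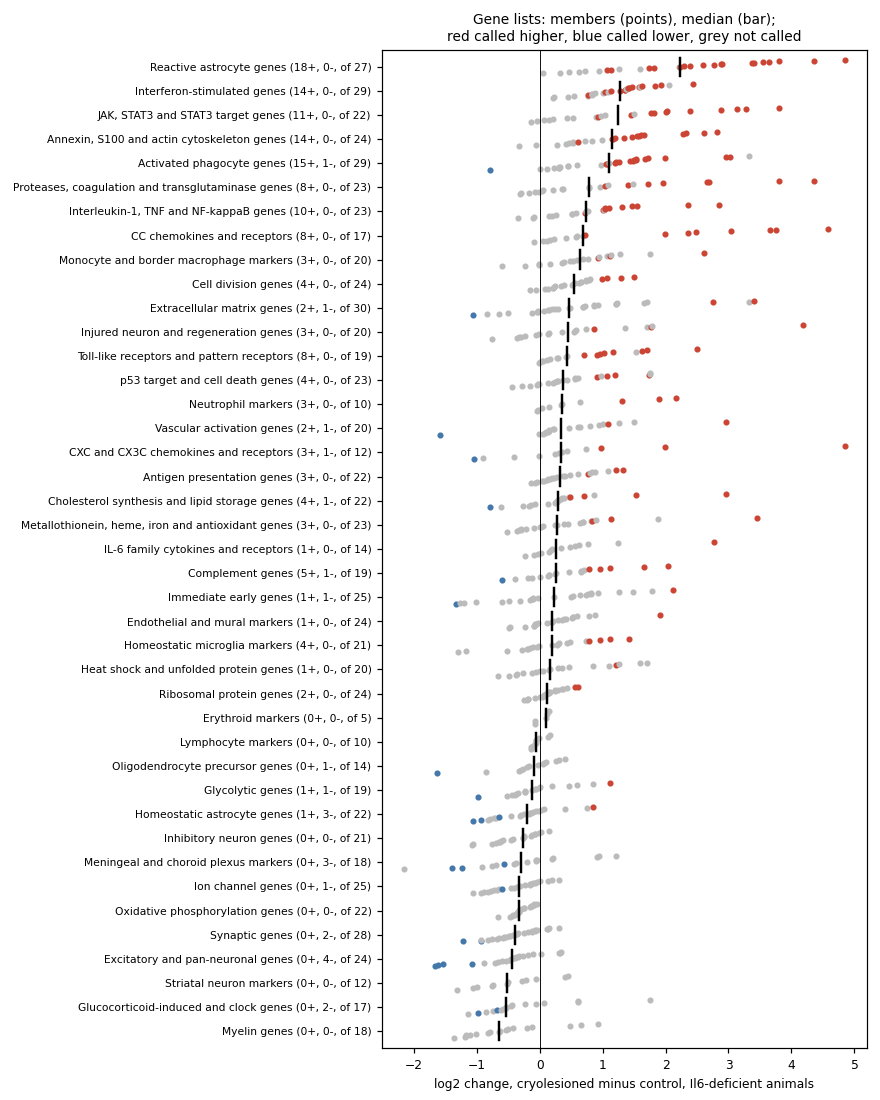
Log2 change after cryolesion in Il6-deficient animals (x axis) for the tested members of 41 gene lists (y axis, with the numbers called higher and lower of those tested); red points were called higher, blue lower and grey not called, and the bar is the list's median. The reactive astrocyte list has the highest median (2.23) and the myelin list the lowest (-0.64).

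Phagocyte genes rose, while microglial identity genes did not move in a common direction. Of 29 activated phagocyte genes 15 rose and 1 fell, with a median of 1.10. Lgals3, a galectin of activated phagocytes, read 7.41, 6.43, 7.46 and 7.68 in controls and 9.76, 9.90, 9.29 and 10.14 after the lesion. The groups were separate, and the rise was 3.02 ± 0.27 (adjusted p = 0.00674; 7 of 8 fits). Ch25h, which makes 25-hydroxycholesterol, rose by 2.96 ± 0.32 (7 of 8 fits), the protease Ctsc by 1.99 ± 0.18 (7 of 8) and the actin-capping protein Capg by 1.71 ± 0.22 (4 of 8). Apoe, the main lipid carrier of the brain, was called at -0.79 ± 0.10 (adjusted p = 0.0142; 4 of 8 fits). Its lesioned animal 1 read 16.27, within the control range of 16.13 to 16.59, and the other 3 were below it.

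Of 21 homeostatic microglia markers 4 rose and 0 fell, with a median of 0.19. Fcrls, an Fc receptor-like protein of microglia, read 8.87, 8.89, 8.90 and 8.98 in controls and 9.90, 9.86, 10.07 and 9.90 in lesioned animals. Both groups were tight and about a log2 unit apart, and the fitted rise was 1.41 ± 0.09 (adjusted p = 0.00268; 8 of 8 fits). The other 3 were the chains of complement C1q: C1qb rose by 1.12 ± 0.11 (7 of 8 fits), C1qa by 0.96 ± 0.12 (4 of 8) and C1qc by 0.79 ± 0.11 (2 of 8). P2ry12, the ADP receptor of surveying microglia, read 8.93, 8.65, 8.88 and 9.05 in controls and 7.57, 7.32, 8.18 and 7.47 after the lesion. Every lesioned animal was lower, yet the fitted change of -1.30 ± 0.36 was not called (adjusted p = 0.121), and it was -0.53 along the path through floxed controls and -2.08 along the other. P2ry12 was called with sex as a covariate (-1.70, adjusted p = 0.0348), without deficient-lesion array 1 (0.0422) and in the separate-channel fit (0.0029). In the fit reported, Tmem119 (-0.52 ± 0.19), Cx3cr1 (0.43 ± 0.11) and Aif1 (0.73 ± 0.26) were not called either, although the 4 lesioned animals did not overlap the controls in any of these genes. In whole tissue, fewer cells of a type and less RNA per cell cannot be told apart.

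Receptors for microbial and damage signals rose in 8 of 19 cases, with 0 lower and a median of 0.43. Cd14, the co-receptor of Tlr4, rose by 2.51 ± 0.27 (7 of 8 fits) and Tlr2 by 1.70 ± 0.15 (7 of 8). Tlr2 stood at 6.79, 6.66, 6.81 and 6.70 in controls and 7.67, 8.28, 8.25 and 8.09 after the lesion, without overlap. Pycard, the inflammasome adaptor, rose by 1.63 ± 0.17 (5 of 8) and Tlr13 by 1.17 ± 0.20 (2 of 8), while the inflammasome sensor Nlrp3 changed by 0.01 ± 0.11 and was not called. Among interleukin-1, TNF and NF-kappaB genes 10 of 23 rose and 0 fell, with a median of 0.73. The TWEAK receptor Tnfrsf12a rose by 2.85 ± 0.49 (3 of 8), the TNF receptor Tnfrsf1a by 2.36 ± 0.26 (5 of 8), the alarmin Il33 by 1.55 ± 0.22 (3 of 8) and the adaptor Myd88 by 1.47 ± 0.26 (2 of 8).

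In the complement list 5 of 19 genes rose and 1 fell. C4b, a component that opsonises targets, went from 10.08, 9.80, 9.85 and 9.98 to 11.98, 12.39, 12.40 and 12.05. The groups stood about 2 log2 units apart, and the rise was 2.04 ± 0.18 (adjusted p = 0.00653; 8 of 8 fits). C5ar1, the receptor for the attractant C5a, rose by 1.66 ± 0.16 (7 of 8), whereas C3 changed by 0.26 ± 0.16 and was not called.

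Markers of blood-borne cells moved in part. Of 10 tested neutrophil markers 3 rose and 0 fell. S100a9, which neutrophils hold in large amounts, read 7.13, 7.05, 7.21 and 7.90 in controls and 10.43, 9.64, 9.24 and 9.97 after the lesion. It rose by 2.17 ± 0.32 (3 of 8 fits), its partner S100a8 by 1.89 ± 0.36 (1 of 8) and the decoy receptor Il1r2 by 1.31 ± 0.22 (3 of 8). The granule genes Elane (-0.04 ± 0.10), Mmp8 (-0.03 ± 0.08) and Camp (0.03 ± 0.12) were not called. Ngp and Ltf did not pass the filter on dim probes, and no reading under the name Ly6g was available. The list's mean level was 7.58 to 7.75 in controls and 7.95 to 8.50 in lesioned animals.

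Of 20 monocyte and border macrophage markers 3 rose and 0 fell, with a median of 0.65 and a mean level of 7.17 to 7.28 in controls and 7.75 to 8.0 after the lesion. S100a4 rose by 2.61 ± 0.29 (5 of 8 fits) and Ifitm3, an antiviral membrane protein, by 1.11 ± 0.13 (6 of 8). Plac8 was well above background in 0 of 4 controls and 4 of 4 lesioned animals and its fitted change was 0.92 ± 0.16 (adjusted p = 0.0405; 1 of 8). By its levels Plac8 was at least 2.28-fold higher, again a larger fold than the fitted ratio gives. By limma 0 of 10 tested lymphocyte markers (17 listed) and 0 of 5 tested erythroid markers (9 listed) were called, against 2.73% of all features. Lists this short can hold 0 calls at that share, so these counts are no result about the cells. Gzma changed by 0.16 ± 0.13, Cd2 by -0.14 ± 0.10 and Klrb1c by -0.13 ± 0.22 among the former, and Alas2 by 0.14 ± 0.23, Slc4a1 by 0.12 ± 0.09 and Hbb-bt by 0.11 ± 0.26 among the latter. The mean level of erythroid markers was 11.11 to 11.60 in controls and 10.89 to 11.70 in lesioned animals, with overlap. The part of entering blood cells in the changes above was not tested.

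Interferon-stimulated genes rose in 14 of 29 cases with 0 lower, and all 29 fitted changes were above 0, with a median of 1.28. Isg15, a ubiquitin-like protein, read 9.19, 9.03, 10.14 and 9.81 in controls and 10.32, 11.87, 10.84 and 11.44 in lesioned animals. Lesioned animal 1 was just above control 3, so the gap was narrow. Its rise was 1.93 ± 0.30 (adjusted p = 0.0284; 2 of 8 fits). The guanylate-binding GTPases Gbp2 and Gbp3 rose by 2.44 ± 0.47 and 1.83 ± 0.29 (2 of 8 fits each). Irf7, the transcription factor of the type I interferon loop, rose by 1.62 ± 0.29 (adjusted p = 0.0405; 2 of 8), but its levels overlapped, with lesioned animal 1 at 9.61 and control 3 at 9.65. The transcription factors Stat2 (0.83 ± 0.20) and Irf1 (1.08 ± 0.23) were not called. Of 22 antigen presentation genes 3 rose: the peptide transporter Tap1 (1.33 ± 0.22; 2 of 8), the immunoproteasome subunit Psmb8 (1.21 ± 0.12; 6 of 8) and H2-DMb1 (0.77 ± 0.11; 1 of 8).

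The promoters of Cxcl10, Gbp2, Gbp3 and Isg15 are shown because each of these interferon-induced genes rose and holds the core of an interferon response element in the 250 bases before its start, and that of Emp1 because it holds a pair of AP-1 motifs and no interferon core. Sequences are from RefSeq on GRCm38.p6 and run 5′ to 3′ on the strand of the gene. Capitals mark matches, on either strand, to the interferon core (GAAA, any 2 bases, GAAA) or to the AP-1 motif TGANTCA.
Cxcl10, chr5:92348890-92349139, minus strand: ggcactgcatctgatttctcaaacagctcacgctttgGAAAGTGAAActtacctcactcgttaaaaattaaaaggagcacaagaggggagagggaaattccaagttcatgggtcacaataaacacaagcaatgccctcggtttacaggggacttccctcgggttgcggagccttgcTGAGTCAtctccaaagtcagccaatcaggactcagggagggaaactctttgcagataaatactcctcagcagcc
Gbp2, chr3:142620413-142620662, plus strand: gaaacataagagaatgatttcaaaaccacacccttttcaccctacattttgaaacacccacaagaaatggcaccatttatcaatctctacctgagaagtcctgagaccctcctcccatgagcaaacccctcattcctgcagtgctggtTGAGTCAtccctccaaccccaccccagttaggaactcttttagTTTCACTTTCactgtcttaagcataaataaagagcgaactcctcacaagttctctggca
Gbp3, chr3:142559794-142560043, plus strand: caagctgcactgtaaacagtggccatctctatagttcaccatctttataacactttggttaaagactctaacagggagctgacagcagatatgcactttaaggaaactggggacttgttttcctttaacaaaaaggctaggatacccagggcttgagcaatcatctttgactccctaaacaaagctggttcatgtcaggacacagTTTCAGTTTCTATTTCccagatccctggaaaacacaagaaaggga
Isg15, chr4:156200819-156201068, minus strand: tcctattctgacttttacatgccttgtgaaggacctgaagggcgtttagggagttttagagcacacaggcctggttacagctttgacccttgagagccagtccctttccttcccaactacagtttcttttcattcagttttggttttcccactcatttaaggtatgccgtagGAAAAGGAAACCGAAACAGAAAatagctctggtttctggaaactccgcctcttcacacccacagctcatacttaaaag
Emp1, chr6:135362681-135362930, plus strand: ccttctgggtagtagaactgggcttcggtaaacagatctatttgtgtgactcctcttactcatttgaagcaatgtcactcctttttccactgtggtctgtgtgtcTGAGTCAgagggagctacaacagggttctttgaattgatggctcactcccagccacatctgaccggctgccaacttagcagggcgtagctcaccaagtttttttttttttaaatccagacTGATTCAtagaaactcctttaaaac

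The interferon core matched once in Cxcl10 and once in Gbp2, in 2 overlapping copies in Gbp3 and in 3 overlapping copies in Isg15. Over the 250 bases before the start, the interferon core was found in 3.04% of 27025 promoters, in 2.74% of the 13301 of tested genes, in 25 of 322 genes called higher (7.76%) and in 8 of 203 called lower (3.94%). Of the interferon-stimulated genes with a promoter in the table, 11 of 22 tested (50%) and 7 of 12 called (58.3%) held it. The AP-1 motif TGANTCA was found in 6.87% of all promoters, in 4.84% of those of tested genes, in 9.63% of those of genes called higher and in 3.94% of those called lower. The STAT motif TTCCNGGAA was found in 0.914%, 0.917%, 1.86% and 0.493% of these sets, in the same order. None of the 3 motifs was found in this window of Ccl12, Timp1, Gfap, Ptx3, Cd44, Osmr, Lcn2, Socs3 or Stat3. The interferon-stimulated gene Irf7, called higher, held none either, while Itpka, called lower, held the interferon core. Only the first listed start of each gene was searched. A match of letters is a description of the sequence, and binding was not measured.

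Cytoskeletal genes of motile and reactive cells rose in 14 of 24 cases with 0 lower, and their median was 1.15. Msn, which links actin to the membrane, went from 10.08, 9.93, 10.04 and 9.99 to 12.25, 12.26, 11.94 and 12.20, with both groups tight. It rose by 2.81 ± 0.30 (7 of 8 fits). The membrane-binding Anxa2 rose by 2.33 ± 0.28 (4 of 8) and the actin-binding Tagln2 by 2.28 ± 0.29 (4 of 8). Tubb6, a tubulin isotype of injured neurons and reactive cells, read 7.17, 7.06, 8.03 and 8.43 in controls and 11.70, 11.48, 10.83 and 11.68 after the lesion. The groups were over 2 log2 units apart, and Tubb6 rose by 4.18 ± 0.32 (adjusted p = 0.00432; 8 of 8 fits). With it, Ecel1 (1.77 ± 0.22; 3 of 8) and Tubb2b (0.87 ± 0.11; 3 of 8) were the 3 of 20 injured neuron and regeneration genes called, all higher.

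Among protease, coagulation and transglutaminase genes 8 of 23 rose and 0 fell, with a median of 0.79. Besides Timp1 and Tgm1, the matrix protease Adamts1 rose by 2.70 ± 0.37 (4 of 8 fits). In the extracellular matrix list 2 of 30 genes rose, Cd44 and the secreted adhesion protein Tgfbi (2.76 ± 0.30; 5 of 8), and Bcan fell. Endothelial and mural markers held 1 riser among 24, the contractile protein Tagln (1.91 ± 0.24; 5 of 8). In the vascular activation list Ch25h and the endothelial surface protein Ecscr (1.09 ± 0.17; 1 of 8) rose, and Cd34 fell, among 20 tested.

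Some stress genes were called, all of them higher, set beside 1.67% of all features called higher. Hmox1, which degrades heme, read 8.38, 8.20, 8.48 and 8.21 in controls and 12.17, 12.50, 11.61 and 11.89 in lesioned animals. The groups lay over 3 log2 units apart, and the rise of 3.45 ± 0.48 (adjusted p = 0.0212; 4 of 8 fits) was 2.58 along the path through floxed controls and 4.33 along the other. The copper carrier Cp (1.13 ± 0.18; 1 of 8; 0.21 with the mean of its probes) and the metal transporter Slc11a1 (0.84 ± 0.15; 0 of 8) were the other 2 of 23 genes called in that list. The metallothionein Mt2 read 15.15, 15.27, 14.82 and 15.31 in controls and 17.33, 16.28, 16.44 and 16.74 in lesioned animals, without overlap, but its change of 1.88 ± 0.43 was not called (adjusted p = 0.0771). Mt2 was called with an offset of 16 (adjusted p = 0.0452), in the authors' value table (0.0409) and in the separate-channel fit (0.00169). Mt1 changed by 0.90 ± 0.35 and was not called. Hspb8, a small heat shock protein, was the 1 of 20 heat shock and unfolded protein genes that rose (1.21 ± 0.11; 8 of 8).

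Some growth arrest, death and division genes rose, set beside 1.67% of all features called higher. Of 23 p53 target and cell death genes 4 rose: Gadd45g (1.73 ± 0.28; 3 of 8 fits), the death receptor Fas (1.20 ± 0.12; 6 of 8), Casp8 (1.06 ± 0.15; 4 of 8) and the inflammatory caspase Casp4 (0.91 ± 0.09; 7 of 8). Of 24 cell division genes 4 rose as well. Mcm3, part of the replication helicase, read 8.18, 8.02, 8.20 and 7.92 in controls and 9.39, 9.98, 9.99 and 9.96 after the lesion. Lesioned animal 1 was lower than the other 3 and still above all controls, and the rise was 1.5 ± 0.11 (adjusted p = 0.00383; 8 of 8 fits). Mcm6 (1.29 ± 0.19; 3 of 8), Ccnd1 (1.07 ± 0.09; 7 of 8) and Cdt1 (0.99 ± 0.16; 2 of 8) were the others.

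**Figure D4:**
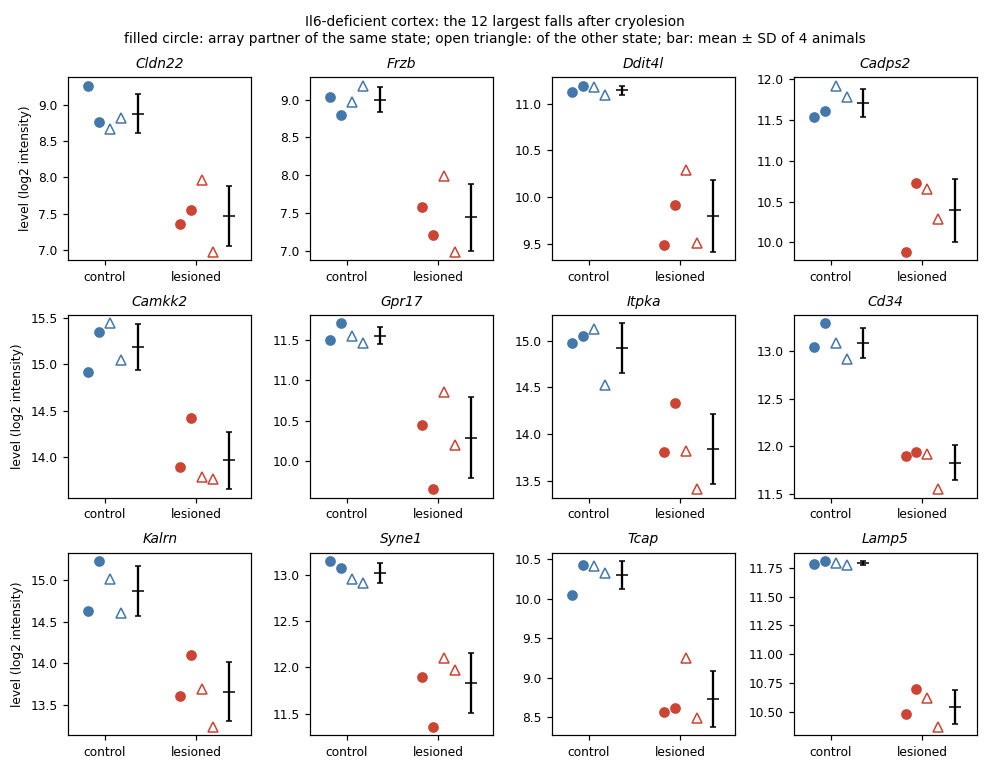
Log2 intensity (y axis) in each deficient control and deficient lesioned animal (x axis, animals 1 to 4 from left to right) for the 12 called genes with the largest falls; circles have an array partner of their own state, triangles one of the other state, and the bar is the mean ± SD of 4 animals. Every lesioned animal lies below every control in all 12 genes, as in Itpka, where controls read 14.53 to 15.12 and lesioned animals 13.41 to 14.33.

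The falls were smaller, and neuronal genes were among them. Of 24 excitatory and pan-neuronal genes 4 fell and 0 rose, with a median of -0.43. Itpka, a kinase of dendritic spines, read 14.98, 15.05, 15.12 and 14.53 in controls and 13.81, 14.33, 13.82 and 13.41 in lesioned animals. The groups did not overlap, and Itpka fell by 1.61 on the log2 scale (± 0.13, adjusted p = 0.00569; 8 of 8 fits). Camkk2, a calcium-dependent kinase, was called at -1.66 ± 0.20 (5 of 8), the spine exchange factor Kalrn at -1.54 ± 0.23 (3 of 8) and the projection neuron transcription factor Tbr1 at -1.07 ± 0.18 (2 of 8). Over the alternatives tried, the change of Kalrn ran from -1.87 to -0.36. The mean level of the list was 13.18, 13.33, 13.28 and 13.21 in controls and 12.91, 13, 12.54 and 12.64 in lesioned animals. Striatal neuron markers averaged 10.94, 10.85, 10.83 and 11.32 in controls and 10, 10.01, 11.91 and 11.93 in lesioned animals, so lesioned animals 3 and 4 were the higher pair for striatal and the lower pair for excitatory genes. Lesioned animals 3 and 4 were also those with control array partners, so animal and array partner cannot be told apart here. The part of the striatal markers in these falls was not tested.

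Synaptic genes fell in 2 of 28 cases with 0 higher and a median of -0.39. Stx1a, a membrane protein of transmitter release, went from 11.92, 12.31, 12.24 and 12.23 to 11.43, 11.33, 10.98 and 10.63. All lesioned animals were lower, and the fall was -1.22 ± 0.08 (adjusted p = 0.00315; 8 of 8 fits). The scaffold Dlgap1 was called at -0.93 ± 0.14 (2 of 8), although lesioned animal 2 (13.50) lay within the control range. Of 25 ion channel genes Kcnh3 was called (-0.60 ± 0.11; 0 of 8). By limma 0 of 21 inhibitory neuron genes passed, against 2.73% of all features, with a median of -0.27. The calcium-binding protein Calb1 changed by -1.07 ± 0.26 (adjusted p = 0.0848), the neuropeptide precursor Tac1 by -1.05 ± 1.09 (adjusted p = 0.668) and the vesicular transporter Slc32a1 by -0.76 ± 0.26 (adjusted p = 0.186).

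Glial precursor, vascular and secreted genes made up other falls. Gpr17, a receptor of committed oligodendrocyte precursors, read 11.50, 11.71, 11.55 and 11.47 in controls and 10.44, 9.65, 10.86 and 10.20 after the lesion. It fell by 1.63 on the log2 scale (± 0.28, adjusted p = 0.0379; 2 of 8 fits) and was the 1 of 14 precursor genes called. Cd34, a sialomucin of endothelial and progenitor cells, read 13.04, 13.29, 13.08 and 12.92 in controls and 11.90, 11.94, 11.92 and 11.55 in lesioned animals. The gap between groups was about a log2 unit, and Cd34 fell by 1.58 (± 0.14, adjusted p = 0.00653; 8 of 8 fits). Frzb, a secreted inhibitor of Wnt ligands, was called at -1.85 ± 0.19 (5 of 8) and the tight junction protein Cldn22 at -1.86 ± 0.21 (6 of 8). The remaining large falls were Ddit4l (-1.74 ± 0.30; 2 of 8), Cadps2 (-1.66 ± 0.24; 3 of 8), Syne1 (-1.52 ± 0.16; 6 of 8; -0.48 with the mean of its probes), Tcap (-1.51 ± 0.22; 1 of 8) and Lamp5 (-1.49 ± 0.22; 3 of 8).

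Myelin genes had the lowest median of the lists, -0.64, but 0 of 18 were called by limma, against 2.73% of all features. Enpp2, which makes the signalling lipid lysophosphatidic acid, read 13.57, 13.45, 13.52 and 14.00 in controls and 12.24, 12.31, 12.52 and 12.42 after the lesion. Its levels did not overlap, but the change of -1.36 ± 0.27 missed the threshold (adjusted p = 0.0527). Enpp2 was called with an offset of 16 (adjusted p = 0.0373), in the authors' value table (0.0385), with a filter of 8 channels (0.048) and in the separate-channel fit (0.000371). Mal, a proteolipid of myelin, changed by -1.19 ± 0.31, and its levels overlapped. In the meningeal and choroid plexus list Myoc (-1.39 ± 0.19; 4 of 8 fits), Gkn3 (-1.23 ± 0.23; 2 of 8) and Slc6a20a (-0.57 ± 0.11; 0 of 8) were called lower among 18, while Dcn (1.22 ± 0.43) and Ttr (-2.15 ± 1.08) were not called.

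Activity-dependent genes were divided. Of 25 immediate early genes 1 rose, Ccn1, a secreted matrix protein (2.12 ± 0.32; 3 of 8 fits), and 1 fell. Egr1, a transcription factor induced by neuronal activity, read 12.88, 13.95, 12.81 and 13.12 in controls and 11.62, 12.08, 12.67 and 11.73 in lesioned animals. Lesioned animal 3 was just below the lowest control, and the fall was -1.33 ± 0.25 (adjusted p = 0.0469; 1 of 8). Fos (0.93 ± 0.39), Arc (0.73 ± 0.20) and Nr4a1 (-1.27 ± 0.36) were not called.

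Metabolic lists held calls in both directions, set beside 1.67% of all features called higher and 1.07% called lower. In the cholesterol and lipid list 4 of 22 genes rose, among them Ch25h, the lipid droplet protein Plin2 (1.52 ± 0.21; 4 of 8 fits) and lanosterol synthase, Lss (0.70 ± 0.12; 1 of 8), and Apoe fell. Of 19 glycolytic genes Hk2 rose (1.12 ± 0.19; 2 of 8) and Ldhb fell (-0.98 ± 0.15; 2 of 8). All 22 oxidative phosphorylation genes had fitted changes below 0, with a median of -0.33, and 0 were called by limma: Atp5a1 changed by -0.66 ± 0.19, Atp5b by -0.47 ± 0.22 and Ndufs3 by -0.44 ± 0.11. Of 24 ribosomal protein genes Rplp0 (0.61 ± 0.11; 0 of 8) and Rpl18 (0.56 ± 0.09; 1 of 8) rose. The glucocorticoid-induced Tsc22d3 (-0.98 ± 0.12; 4 of 8) and the clock gene Per3 (-0.68 ± 0.12; 0 of 8) were called lower among 17. Per3 overlapped, with 7.90, 8.17, 8.10 and 8.13 in controls against 7.83, 8.28, 7.95 and 7.51.

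Whether microglial Il6 alters the response was asked by setting the change in deficient animals against that in floxed animals. Both comparisons draw on the same 8 arrays, so their likeness is no independent evidence, and only the test of the difference is read. By limma 0 of 29362 features had a difference at an adjusted p under 0.05, with 0.99998 as the smallest adjusted p, and the separate-channel fit also gave 0. At an unadjusted p under 0.05 there were 972 (3.31%). Without control array 2, 1 feature passed. These counts do not show that the responses were alike. Side by side, the change was 4.85 in deficient and 4.18 in floxed animals for Cxcl10, 3.65 and 3.50 for Gfap, 2.00 and 1.85 for Socs3, 2.77 and 2.69 for Osmr, and 3.45 and 4.17 for Hmox1. The difference had a standard error of 1.10 for Cxcl10, so the estimate is imprecise there.

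**Figure D5:**
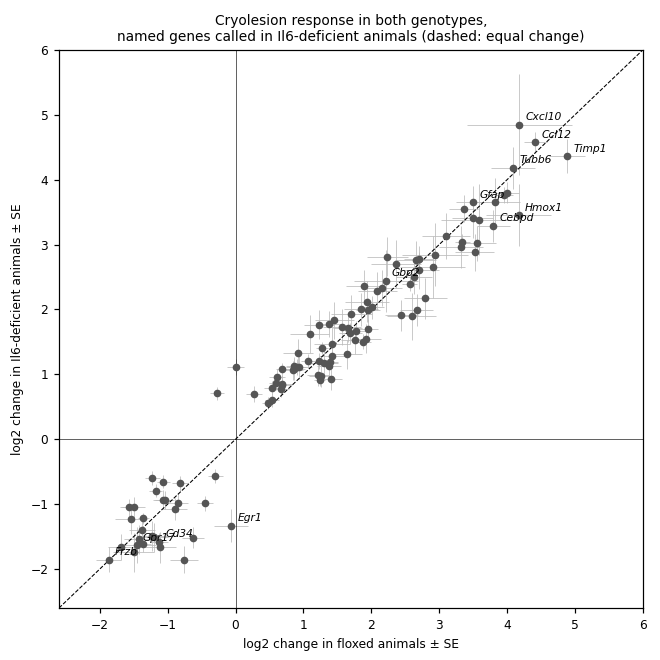
Log2 change in Il6-deficient animals (y axis) against that in floxed animals (x axis), both ± SE, for the 111 genes named by rule and called in deficient animals; the dashed line marks equal changes, and both axes come from 1 fit of the same 8 arrays. Egr1 lies apart at -1.33 and -0.06, and Timp1 at 4.36 and 4.88.

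The 5 named genes with the smallest unadjusted p for the difference are given by their values. Dlgap3, a postsynaptic scaffold, changed by -0.12 ± 0.09 in deficient and -1.01 ± 0.09 in floxed animals, a difference of 0.89 ± 0.13 (unadjusted p = 0.000283). In deficient animals it read 14.34, 14.56, 14.61 and 14.81 in controls and 14.46, 14.58, 14.00 and 14.06 after the lesion, with overlap. Igfbp2, which binds insulin-like growth factors, rose in deficient animals by 1.11 ± 0.13 (adjusted p = 0.0124; 4 of 8 fits) and had a floxed change of 0.00 ± 0.13, a difference of 1.11 ± 0.18. Its deficient controls read 9.74, 9.88, 9.92 and 10.48 and its lesioned animals 11.22, 10.78, 10.84 and 10.67. Trank1 differed by 0.98 ± 0.15, Zic1 by -1.26 ± 0.22 and Grik5 by 0.79 ± 0.14. None passed after adjustment. Zic1 read 10.97 in deficient control 1 against 8.95 to 9.24 in the other 3 controls. Among called genes, Egr1 differed by -1.27 ± 0.36 between genotypes (unadjusted p = 0.00930) and Syne1 by -0.89 ± 0.23 (unadjusted p = 0.00585), neither after adjustment.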

How the data were processed

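Scanner files of 8 arrays (16 animals, all on 1 slide and 1 scan) were used. Per the file headers, the scanner software was Agilent Feature Extraction 10.7.3.1, and the authors deposited median spot and background intensity in both dyes. The deposited processed intensity, background-subtracted and dye-normalized per the file headers, served as an alternative. The deposited log10 ratio was used only to settle the scale of the authors' value table of log2 ratios, whose normalization the sources used here do not state.

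Median signals were used, since the files used here hold no mean signal. Background was corrected with normexp (offset 50), ratios were normalized by loess, and probes well above background in at least 4 of 16 channels were kept (37352). Of 56605 probes 32994 were named through RefSeq accessions (GRCm38.p6), and 23611 stayed unnamed. A gene was read by its brightest probe. Ratios were fitted with limma 3.58.1 in R 4.3.3 (3 group coefficients, a dye intercept, 4 residual degrees of freedom), and the code was tested on simulated data. Levels followed Aquantile normalization. Named genes are the 12 largest called rises and falls, up to 4 called members of each list (up to 3 largest changes where none was called), 16 fixed genes and the 5 smallest p of the difference between genotypes; other names, the uncalled members included, were chosen after their values were seen. The comparison and lists were chosen with earlier results of these data known. Some genes and their values are not reported here. The number of arrays limits the precision.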

Additional observations from a re-analysis of the deposited data

Results flagged for a closer look

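The animal at an end of each group of 4 was set against the other 3. This covered 286 groups of deficient animals (143 named genes in 2 states). In 15 groups an animal lay far from the rest, which is about the 5% that chance gives. The count itself is therefore no finding, and the flagged animals are listed as values. Among controls, animal 2 stood apart for Xist (7.62 against 5.91 to 6.06), Eif2s3y (6.13 against 9.09 to 9.36) and Uty (5.99 against 7.50 to 7.56), all linked to sex, and for Cxcl10 (6.10 against 6.78 to 6.80) and Psmb8 (7.49 against 7.87 to 7.93). Control 1 was apart for Osmr (7.36 against 7.51 to 7.53) and Zic1 (10.97 against 8.95 to 9.24), control 3 for Tubb2b (13.39 against 13.65 to 13.68) and control 4 for Tgfbi (8.56 against 8.19 to 8.21). Among lesioned animals, animal 1 was apart for Mcm3 (9.39 against 9.96 to 9.99) and Cd2 (5.92 against 6.16 to 6.19), animal 2 for Tmem119 (8.71 against 9.12 to 9.18), animal 3 for Tcap (9.25 against 8.49 to 8.61) and Mal (13.99 against 13.10 to 13.25), and animal 4 for Cd34 (11.55 against 11.90 to 11.94).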

How the results depend on the processing

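Against 803 calls (490 higher, 313 lower), limma called 325 with processed signals (265 higher, 60 lower), 358 with median centring (181 and 177) and 3138 in the separate-channel fit (1569 and 1569). Leaving out 1 array gave 37 to 1187 calls. With an offset of 16, the authors' table, no filter, a filter of 8 channels, all probes, mean probes, sex as a covariate or no sex chromosomes there were 560 to 907. Of the 111 named calls, 4 held under every alternative with a test: Ccl2, Ccl7, Ccl12 and Tgm1. Their sizes still moved, from 3.66 to 4.55 for Ccl2, 2.88 to 5.49 for Ccl7, 4.40 to 5.32 for Ccl12 and 3.56 to 5.68 for Tgm1. Ccl4 ran from 2.69 to 5.98 and Cxcl1 from 1.75 to 5.28. Leaving out 1 array gave 0 to 1 calls for the interaction and 0 to 10 for the difference between the paths, which was otherwise 0 (1992 at an unadjusted p under 0.05). The animals share only a number across groups: their same-number correlations were -0.081, 0.36, 0.091 and 0.12, and 1 of 4 correlated best with its own number. The replicate block left 6 calls in the loop fit and 3485 in the separate-channel fit (1703 higher, 1782 lower).

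Of the uncalled named genes, 10 were called under some alternative: Aif1, Calb1, Cx3cr1, Gzma, Ndufs3 and Tmem119 only in separate-channel fits, and Enpp2, Mal, Mt2 and P2ry12 elsewhere too. Signs turned only in uncalled genes, except for Aldoc, Per3 and Trank1. Uty was -0.089 with sex as a covariate. Leaving out 1 array, Uty ran from -0.089 to 1.28, Klrb1c from -0.26 to 0.11, Hbb-bt from -0.13 to 0.40, Alas2 from -0.11 to 0.33, Tac1 from -1.89 to 0.045 and Adora2a from -1.63 to 0.18. With the block in the loop fit, Tac1 was 1.66, Adora2a 1.40 and Il6ra -0.079, and with the block in the separate-channel fit Cd2 was 0.0058. Hbb-bt was -0.071 and Alas2 -0.089 in the separate-channel fit, and -0.12 and -0.13 there with the block. Level differences were 0.15 for Aldoc and 0.022 for Per3 with like partners, and -0.069 for Trank1 with unlike partners. Through floxed controls alone, the path gave the values of the block in the loop fit. The slide could not be tested, since all arrays share it. Signal near background limits Il6, Cd2 and Plac8.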

Other observations

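Several genes outside the lists also passed in all 8 fits that leave out an array; they were chosen after their values were seen. Angptl4, a secreted inhibitor of lipoprotein lipase, rose by 2.78 ± 0.14 (SE, 4 animals a group). Pdpn, a membrane glycoprotein of reactive astrocytes and lymphatic vessels, rose by 1.96 ± 0.12, and Tspo, the outer mitochondrial protein used to image reactive glia, by 1.59 ± 0.094. The lymphoid and myeloid surface protein Cd72 rose by 2.02 ± 0.12, the transcription factor Runx1 by 1.31 ± 0.11 and the collagen chaperone Serpinh1 by 1.41 ± 0.10. The ligand Wnt9a fell by 1.21 on the log2 scale (± 0.096). In each of these genes the 4 lesioned and 4 control levels did not overlap. The same held for 724 of the 803 calls and for 17.7% of all features. These genes were picked by calls from the same intensities, so the separation is no independent support.

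Striatal neuron markers varied between lesioned animals. Adora2a, an adenosine receptor of striatal neurons, read 10.36, 9.98, 9.68 and 10.84 in deficient controls and 7.69, 8.78, 11.53 and 11.36 in lesioned animals. Lesioned animals 1 and 2 lay below all 4 controls and animals 3 and 4 above them. Animals 1 and 2 had lesioned array partners and animals 3 and 4 control partners, so animal and partner cannot be told apart. By limma 0 of 12 markers were called, against 2.73% of all features, with a median of -0.51 and standard errors up to 1.13.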
